A study of Mus musculus with 10 samples.

Results

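The exit of mouse embryonic stem cells (ESC) from the naive state was examined by setting 2 RNA sequencing libraries of epiblast-like cells (EpiLC) against 2 libraries of ESC, out of 10 libraries in the study. One EpiLC library carries the label haploid and p53-deficient and is called p53-KO EpiLC here, and the other carries the label haploid and wild type and is called wild-type EpiLC. Both ESC libraries are labelled wild type, one of them haploid and the other diploid. All cells are of strain 129SV. How long the EpiLC were converted, in which medium, and whether a library is 1 clone are not given in the sources used here. A gene was described when both EpiLC values lay on the same side of both ESC values. Among the 54532 genes of the table, 11309 met this rule, 4848 with the EpiLC above and 6461 with the EpiLC below. Of the 21104 genes that passed the low-count filter, 8712 met it (41.3% of genes tested), 4225 above (20.0%) and 4487 below (21.3%). This large share sets the background for every gene list below. Levels are CPM, read counts relative to the library total scaled with TMM factors. Without those factors 2980 genes lay above and 5684 below, so the share above among separated genes was 34.4% in place of 48.5%, and the median difference of all tested genes moved from -0.03 to -0.22 on the log2 scale.

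ESC correspond to the preimplantation epiblast and hold the naive state through LIF-STAT3 signalling and a network of transcription factors that includes Klf4, Nanog, Esrrb, Tfcp2l1 and Tbx3. When FGF-ERK signalling acts without that support, cells pass to a formative state in which Otx2, Pou3f1, Fgf5 and the de novo DNA methyltransferases come on while Pou5f1 stays on. EpiLC are the culture form of this step, and epiblast stem cells (EpiSC) of the later, primed epiblast.

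The 4 libraries held 15862113 to 18156542 counts, and 3 counts, the level that a count of 0 allows, came to 0.147 to 0.197 CPM, for counting error only. Whether the libraries come from separate cultures is not given, and p-values measure only the spread between these samples, in which p53 label and ploidy differ too. Over all genes haploid ESC lay about as near to p53-KO EpiLC as the 2 EpiLC libraries lay to each other: 28.1% and 28.4% of tested genes differed by at least 2-fold in these pairs, and 31.2% between the 2 ESC libraries. Diploid ESC differed in 32.5% from p53-KO and 34.6% from wild-type EpiLC, and haploid ESC in 41.2% from wild-type EpiLC. Trp53, which encodes p53, stood at 32.9 CPM in p53-KO and 362 CPM in wild-type EpiLC, and at 28 CPM in haploid and 388 CPM in diploid ESC. The haploid ESC library, labelled wild type, thus lay beside the p53-KO library. Genes that p53 activates paired the libraries in the same way: Ccng1, a cyclin G gene, stood at 30.2, 464, 49.9 and 351 CPM in the same order. Summed over 23 p53 targets the levels were 845, 2880, 950 and 2770 CPM. The Y-linked helicase gene Ddx3y reached 46.9 CPM in wild-type EpiLC, but 0.629 CPM in p53-KO EpiLC and 2.26 CPM in haploid ESC, and had a count of 0 in diploid ESC. The genotypes below are those of the labels.

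Fibroblast markers were high in 1 library of the comparison. Their 23 members summed to 2150 CPM in haploid ESC against 61.6 CPM in diploid ESC, 284 CPM in p53-KO EpiLC and 110 CPM in wild-type EpiLC, and to 88300 CPM in the fibroblast library of the study (MEF). In diploid ESC 9 of the 23 had a count of 0, in wild-type EpiLC 3, and in the other 2 libraries none. All 23 were at least 2-fold higher in haploid than in diploid ESC, against 19.5% of all tested genes. The level of haploid ESC was not peculiar to it in the study, since the EpiSC libraries had sums of 1370 to 3930 CPM. Markers of the 2-cell-like state summed to 212 CPM in haploid ESC and to 10.9 to 24.2 CPM in the other 3 libraries. Germline genes summed to 1580 CPM in haploid ESC and to 317 to 794 CPM in the others. Fewer cells of a type and less RNA per cell cannot be told apart in such bulk samples. The part of these markers in the results below was not tested, and the counts of each list above and below are also given without haploid ESC. Fewer values must then lie apart, and 34.2% of tested genes lay above and 35.4% below, against 31.9% and 31.7% without wild-type EpiLC, 34.0% and 36.2% without p53-KO EpiLC, and 34.8% and 39.3% without diploid ESC.

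At an adjusted p under 0.05 in edgeR's quasi-likelihood test, 90 of 21104 genes changed (0.426%), of which 67 rose (0.317%) and 23 fell (0.109%) in EpiLC. At an unadjusted p under 0.05 there were 3035 (14.4%). The median log2 fold change of all tested genes was -0.05. The fit used all 10 libraries with 1 mean per cell type, so its error rests largely on the 5 EpiSC libraries. These are the haploid p53-KO lines haEpi1 and haEpi5, the diploid wild-type libraries Epi_fema and Epi_male, and 1 diploid p53-KO library. Their spread thus also holds differences in p53 label and ploidy. With the 4 libraries alone no gene passed in edgeR, and 1651 had an unadjusted p under 0.05. Without diploid ESC 1 of the 90 calls was kept, and without wild-type EpiLC 5 were kept. Among the EpiSC libraries, haploid p53-KO line haEpi1 mattered most: without it 9 were kept, namely Arhgef10l, Dusp6, Fgf5, Mid1ip1, Mmp25, Myrf, Prom1, Prss35 and Slc7a7, and without any other EpiSC library 19 to 62. Without MEF all 90 were kept. Without haploid ESC 107 genes passed, among them 36 of the 90, and without p53-KO EpiLC 216 passed, among them 68 of the 90. The direction of all 90 stayed the same in each of these fits. DESeq2 called 544 genes higher and 408 lower, all of the 90 among them.

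Almost all post-implantation epiblast genes lay higher in EpiLC. The members of this list, like those of the others, were chosen with earlier results of these data known. In 16 of 17 tested members both EpiLC libraries were above both ESC libraries, against 20.0% of all tested genes. In 9 of them the gap was at least 1 on the log2 scale, against 2.94% of all tested genes. Here the gap is the lowest EpiLC value minus the highest ESC value. None lay below. With any 1 of the 4 libraries left out 16 or 17 lay above. The median log2 fold change was 2.92, but 1.41 without wild-type EpiLC, and 2.58 to 3.33 without 1 of the other 3 libraries. In edgeR 5 members rose: Fgf5, Pou3f1, Lef1, Otx2 and Pim2. In this list 3 members passed without haploid ESC, 1 without wild-type EpiLC, 0 without diploid ESC and 1 to 4 without 1 of the EpiSC libraries, whereas 9 passed without p53-KO EpiLC. At an unadjusted p under 0.05 in edgeR 14 were higher, and in DESeq2 11 passed.

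Fgf5 (ENSMUSG00000029337, mm10 chr5:98254184-98277030, plus strand), a secreted FGF and the classic marker of the formative epiblast, stood at 39.2 CPM in p53-KO and 113 CPM in wild-type EpiLC, and at 0.147 CPM in haploid and 0.0643 CPM in diploid ESC. The ESC values rest on 3 and 1 counts, and the ratio of summed levels was 674 (95% exact binomial interval 263 to 2480, counting error only). The groups lay far apart, and the EpiSC libraries held 28 to 65.5 CPM. The edgeR log2 fold change was 9.33 ± 0.83 (SE), with an adjusted p of 0.00384. Fgf5 stayed past the threshold in 16 of 18 alternative fits.

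Pou3f1 (ENSMUSG00000090125, mm10 chr4:124656807-124660655, plus strand), a POU transcription factor of the epiblast and early neural plate, stood at 181 and 395 CPM in p53-KO and wild-type EpiLC and at 12 and 3.15 CPM in haploid and diploid ESC. Lef1 (ENSMUSG00000027985, mm10 chr3:131110471-131224356, plus strand), the DNA-binding partner of beta-catenin in Wnt signalling, stood at 63.8 and 158 CPM in EpiLC and 1.23 and 3.28 CPM in ESC. Both genes were higher in wild-type than in p53-KO EpiLC, without overlap with ESC. Their log2 fold changes were 5.24 ± 0.67 (edgeR adjusted p = 0.0249) and 5.63 ± 0.88 (adjusted p = 0.0345). In EpiSC Lef1 was lower than in either EpiLC library, at 13.5 to 57.5 CPM, and Pou3f1 lay at 158 to 281 CPM.

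Otx2, the homeobox factor that redirects Pou5f1 to formative enhancers, stood at 97.9 and 137 CPM in p53-KO and wild-type EpiLC against 16.3 and 10.3 CPM in haploid and diploid ESC (log2 fold change 3.14 ± 0.50, edgeR adjusted p = 0.0345). Pim2, a serine-threonine kinase gene, stood at 388 and 874 CPM against 26.1 and 15.7 CPM (4.91 ± 0.76, adjusted p = 0.0345). Dnmt3b, which methylates DNA de novo, stood at 647 CPM in p53-KO EpiLC and 3030 CPM in wild-type EpiLC. Its ESC values were 230 and 256 CPM, and its fold change of 2.92 ± 0.70 did not pass (adjusted p = 0.117). Sox3 and Sox11, HMG-box factors of the neural lineage, and Grhl2, which drives epithelial genes, lay apart without passing, with adjusted p of 0.0574, 0.0826 and 0.233. Tead2, a nuclear partner of the Hippo pathway, was the member that overlapped: 115 and 271 CPM in EpiLC, 84.9 and 161 CPM in ESC.

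The promoters of Fgf5 and Lef1 are shown because both genes ranked among the 10 largest increases and because the product of Lef1 binds a known motif. The 250 bases before the start are given from RefSeq (GRCm38.p6, that is mm10), 5′ to 3′ on the strand of the gene, with motif matches in capitals. The Lef1 table holds 4 starts, and the one shown is the most downstream, the only one with a match; gene counts do not tell which start was used.
Fgf5, chr5:98253934-98254183, plus strand: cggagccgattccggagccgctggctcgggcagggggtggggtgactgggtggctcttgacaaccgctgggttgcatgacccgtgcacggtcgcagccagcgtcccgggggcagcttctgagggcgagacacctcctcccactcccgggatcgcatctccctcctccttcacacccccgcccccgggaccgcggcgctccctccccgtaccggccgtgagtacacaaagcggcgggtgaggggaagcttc
Lef1, chr3:131156044-131156293, plus strand: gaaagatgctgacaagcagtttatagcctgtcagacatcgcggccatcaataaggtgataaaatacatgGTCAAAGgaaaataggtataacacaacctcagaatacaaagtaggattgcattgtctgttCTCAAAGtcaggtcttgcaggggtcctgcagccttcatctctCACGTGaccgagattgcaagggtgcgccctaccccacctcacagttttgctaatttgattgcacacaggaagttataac
The Fgf5 window held none of the 6 motifs searched on both strands. The Lef1 window held CTTTGAN, the TCF-LEF motif, at 2 places, starting 181 and 121 bases before the start and read on the opposite strand, and the E-box CACGTG at 79 bases before it. TCF-LEF matches were found in 11.2% of the 17151 windows of tested genes (13.8% of all 32851 windows), in 10 of the 78 windows of genes that rose (12.8%) and in 3 of the 22 windows of genes that fell (13.6%). E-boxes were found in 7.78% of the windows of tested genes (6.02% of all), in 8 of 78 of genes that rose (10.3%) and in 0 of 22 of genes that fell. Of the 90 genes that passed, 66 had a promoter in the table. A match is a description of the letters, not a binding site.

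**Figure D1:**
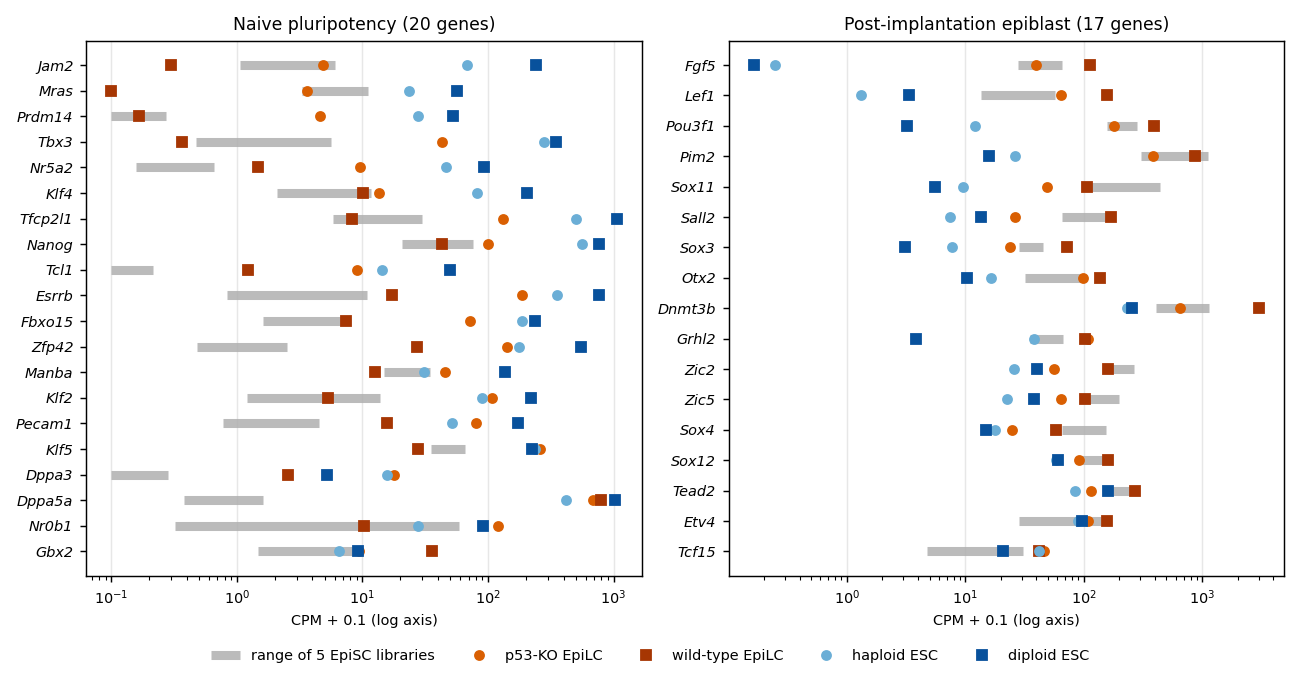
Level of every tested member of the naive and the post-implantation list in the 4 libraries (points, CPM + 0.1 on a log axis), with the range of the 5 EpiSC libraries as a grey bar. In the right panel orange EpiLC points lie to the right of blue ESC points in 16 of 17 genes; in the left panel wild-type EpiLC is the lowest of the 4 in most rows, and p53-KO EpiLC often lies between it and ESC.

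Naive pluripotency genes lay lower in EpiLC, but none of the 20 passed in edgeR. Both EpiLC libraries were below both ESC libraries in 12 members (21.3% of all tested genes), 9 of them by a gap of at least 1 (4.26%). They were above them in 1 member, Gbx2 (20.0% of all tested genes). The median log2 fold change was -2.44. At an unadjusted p under 0.05 12 members were lower, and 6 passed in DESeq2 and 7 in limma on FPKM. Without haploid ESC 16 lay below and 1 above, with a median of -2.81. Without p53-KO EpiLC 18 lay below and 1 above, with a median of -4.41, and Klf5, Jam2, Mras and Prdm14 passed in edgeR. Without wild-type EpiLC 12 lay below and 4 above, with a median of -1.56. The spread within EpiLC was wide: 17 of 20 members were at least 2-fold lower in wild-type than in p53-KO EpiLC, against 18.3% of all tested genes, with a median difference of -3.05 on the log2 scale. The 2 ESC libraries differed as well, with 13 of 20 members at least 2-fold lower in haploid than in diploid ESC (11.7% of all tested genes).

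Klf4 (ENSMUSG00000003032, mm10 chr4:55527143-55532466, minus strand), one of the Yamanaka factors and a target of LIF-STAT3, stood at 13.4 CPM in p53-KO and 10 CPM in wild-type EpiLC, and at 81.5 CPM in haploid and 206 CPM in diploid ESC. Both EpiLC values were close to each other and below both ESC values. The EpiSC range of 1.98 to 11.7 CPM reached above the wild-type EpiLC value. Its log2 fold change of -3.62 ± 0.85 did not pass in edgeR (adjusted p = 0.114), and it passed in 3 of 18 alternative fits. Nanog, the homeobox factor of the naive core, stood at 99.7 and 43.1 CPM in EpiLC and at 566 and 772 CPM in ESC (log2 fold change -3.23 ± 0.68, adjusted p = 0.0833).

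In a second set of naive genes p53-KO EpiLC held an intermediate level. Tbx3, a T-box factor, stood at 42.6 CPM in p53-KO EpiLC and 0.263 CPM in wild-type EpiLC, against 279 and 350 CPM in haploid and diploid ESC. Tfcp2l1, a factor downstream of LIF, stood at 132 and 8.2 CPM in EpiLC against 501 and 1060 CPM in ESC. Esrrb, an orphan nuclear receptor, stood at 185 and 17.1 CPM against 352 and 760 CPM. In all 3 the p53-KO value lay nearer to haploid ESC on the log2 scale than to wild-type EpiLC. Jam2, a junctional adhesion molecule, stood at 67.7 and 243 CPM in ESC and at 4.72 and 0.197 CPM in EpiLC, a log2 fold change of -5.98 ± 1.32 that did not pass (edgeR adjusted p = 0.0946). Mras, a RAS-family GTPase, had a count of 0 in wild-type EpiLC and stood at 3.52 CPM in p53-KO EpiLC.

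Other naive genes overlapped, with p53-KO EpiLC at ESC level. Klf2, a naive Krüppel-like factor, stood at 108 CPM in p53-KO EpiLC and 5.25 CPM in wild-type EpiLC, with 89 and 222 CPM in haploid and diploid ESC. Klf5, its relative, stood at 258 and 27.6 CPM in EpiLC and 237 and 225 CPM in ESC. Nr0b1, an orphan nuclear receptor that binds Pou5f1, stood at 121 and 10.1 CPM in EpiLC and 27.4 and 91.6 CPM in ESC. In each of these genes wild-type EpiLC was the lowest library and p53-KO EpiLC was the highest or the next to it. Dppa5a, an RNA-binding protein gene of pluripotent cells, did not follow: it stood at 690 and 800 CPM in EpiLC and 418 and 1030 CPM in ESC, while EpiSC held 0.28 to 1.5 CPM. Gbx2, a homeobox gene that LIF supports in ESC, lay higher in EpiLC, at 9.37 and 36 CPM against 6.44 and 9.06 CPM, a gap of 0.05. With 1 library per p53 label, line and genotype cannot be told apart in EpiLC, and these differences have no test.

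None of the 11 tested LIF-STAT3 genes passed in edgeR, 3 were lower at an unadjusted p under 0.05 and 2 passed in DESeq2. In 4 both EpiLC libraries were below both ESC libraries and in 0 above, where 21.3% and 20.0% of all tested genes did so. The list is small, and its counts were not tested against these shares. The median log2 fold change was -0.53. Without haploid ESC 6 lay below and 2 above, with a median of -0.44. Of all tested genes 35.4% then lay below and 34.2% above, and 36.2% and 34.0% without p53-KO EpiLC. Without p53-KO EpiLC 8 lay below and 0 above, the median was -1.97, and Socs3, Bcl3 and Il6st passed in edgeR. The median was -1.12 without diploid ESC, -1.3 with p53 label and ploidy as covariates and -1.1 with limma on log2(FPKM + 0.1). Socs3, the feedback inhibitor that STAT3 induces, stood at 23.5 and 5.38 CPM in p53-KO and wild-type EpiLC and at 206 and 87.4 CPM in haploid and diploid ESC. Bcl3, an atypical IkB protein gene, stood at 13.2 and 1.64 CPM against 74.7 and 74.1 CPM. For both genes the 2 groups were apart, with log2 fold changes of -3.34 ± 0.71 and -3.32 ± 0.85 (edgeR adjusted p = 0.0842 and 0.137). The receptor genes Lifr and Il6st lay below ESC by gaps of 0.68 and 0.46. Stat3 itself overlapped, at 188 and 28.4 CPM in EpiLC and 153 and 158 CPM in ESC. Again wild-type EpiLC stood lowest: 6 of 11 members were at least 2-fold lower there than in p53-KO EpiLC, and 0 were higher by that much.

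The promoters of Klf4 and Socs3 are shown because both genes answer to LIF-STAT3 in ESC; Socs3 was chosen after its values were seen. The windows are given as above, with the matches in capitals.
Klf4, chr4:55532476-55532725, minus strand: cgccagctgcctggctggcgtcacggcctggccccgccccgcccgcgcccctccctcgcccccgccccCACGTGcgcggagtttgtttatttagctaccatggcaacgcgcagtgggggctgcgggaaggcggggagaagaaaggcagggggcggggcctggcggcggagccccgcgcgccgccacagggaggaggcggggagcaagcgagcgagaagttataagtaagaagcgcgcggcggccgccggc
Socs3, chr11:117969367-117969616, minus strand: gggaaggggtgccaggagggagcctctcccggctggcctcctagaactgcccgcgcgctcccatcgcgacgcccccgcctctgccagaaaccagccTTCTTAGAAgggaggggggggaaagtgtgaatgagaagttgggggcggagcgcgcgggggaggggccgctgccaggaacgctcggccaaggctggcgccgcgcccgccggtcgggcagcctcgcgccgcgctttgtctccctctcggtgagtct
The Socs3 window held the STAT motif TTCNNNGAA, starting 154 bases before the start, and the Klf4 window held the E-box CACGTG at 182 bases before the start. STAT matches were found in 5.89% of the windows of tested genes (7.02% of all), in 5 of 78 of genes that rose (6.41%) and in 2 of 22 of genes that fell (9.09%). ETS matches, with the letters CCGGAAGT, were found in 4.85% of the windows of tested genes (2.88% of all), in 0 of 78 windows of genes that rose and 0 of 22 of genes that fell. Among genes separated by a gap of at least 1 the ETS share was 0.389% above and 1.24% below.

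Feedback genes of FGF-ERK signalling lay higher in EpiLC. Of 20 tested members 12 had both EpiLC libraries above both ESC libraries, against 20.0% of all tested genes. In 6 of them the gap was at least 1, against 2.94%, and 1 member lay below, against 21.3%. The median log2 fold change was 0.64. Without haploid ESC 17 lay above and 1 below, with a median of 1.26. Without diploid ESC 13 lay above and 6 below, and without wild-type EpiLC 12 lay above and 2 below, with a median of 0.25. Of all tested genes 34.2%, 34.8% and 31.9% lay above in that order, and 35.4%, 39.3% and 31.7% below. Dusp6 and Spry1 rose, 8 members were higher at an unadjusted p under 0.05 and 6 passed in DESeq2. Dusp6, a phosphatase that removes ERK activity in the cytoplasm, stood at 264 and 436 CPM in p53-KO and wild-type EpiLC and at 18.4 and 22 CPM in haploid and diploid ESC (log2 fold change 4.11 ± 0.38, edgeR adjusted p = 0.00407). Spry1, an inhibitor of receptor tyrosine kinase signalling, stood at 41.9 and 38.2 CPM against 11.5 and 8.87 CPM (1.98 ± 0.29, adjusted p = 0.0317). Unlike in the naive list, the 2 EpiLC libraries were close for these genes. Of the pair, Dusp6 passed without wild-type EpiLC and neither passed without diploid ESC.

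Dusp4, a nuclear ERK phosphatase gene, stood at 199 and 242 CPM in EpiLC, with 26.2 CPM in haploid and 2.31 CPM in diploid ESC, and did not pass (edgeR adjusted p = 0.102). Myc, the growth-promoting transcription factor, stood at 58.7 and 120 CPM against 8.11 and 11.8 CPM (log2 fold change 3.17 ± 0.59, adjusted p = 0.0574). Egr1, an immediate early factor, stood at 71 and 330 CPM against 13.7 and 17.5 CPM (adjusted p = 0.0984). In each the lowest EpiLC value was over the highest ESC value. The ETS factor gene Etv5 was separated by a gap of only 0.07, at 499 and 627 CPM against 270 and 476 CPM. Dusp14, another dual-specificity phosphatase gene, was the member below, at 7.67 and 9.52 CPM against 16.5 and 11.2 CPM. Fosl2, an AP-1 subunit, did not follow the list, with its highest value in haploid ESC: 8.99 and 3.81 CPM in EpiLC, 39.7 CPM in haploid and 1.16 CPM in diploid ESC.

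Among 16 FGF ligand and receptor genes Fgf5 rose. In this list 3 lay above, each by a gap of at least 1, and 4 lay below, 1 of them by such a gap. Of all tested genes 20.0% lay above and 21.3% below. Without haploid ESC the counts of the list were 6 and 6. Fgf15, a ligand of the early neural plate, stood at 6.04 and 70.3 CPM in p53-KO and wild-type EpiLC and at 1.03 and 0.643 CPM in ESC (log2 fold change 5.48 ± 1.07, edgeR adjusted p = 0.0679). Fgf4, the autocrine ligand that drives ERK in ESC, overlapped, at 109 and 177 CPM in EpiLC and 114 and 242 CPM in ESC. Fgfr1, its main receptor there, also overlapped, at 98.7 and 189 CPM against 197 and 155 CPM. Neither this ligand nor this receptor was separated between EpiLC and ESC.

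**Figure D2:**
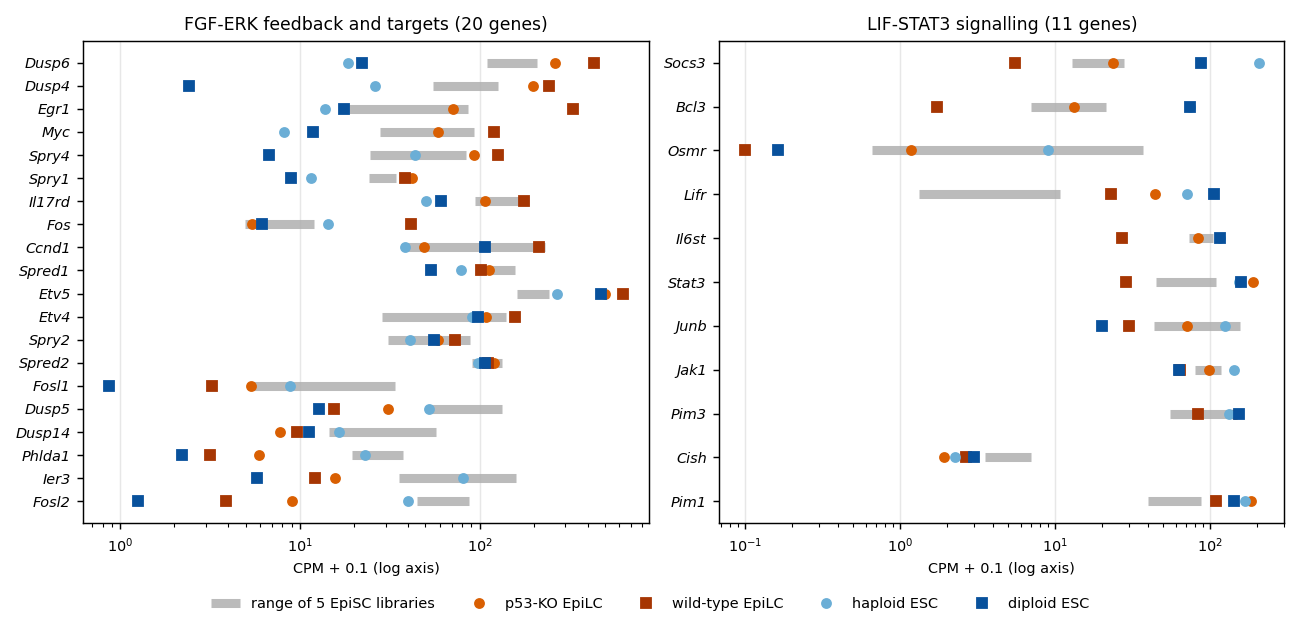
Level of the tested members of the FGF-ERK and LIF-STAT3 lists in the 4 libraries (points, CPM + 0.1 on a log axis), with the range of the 5 EpiSC libraries as a grey bar. Dusp6, Dusp4, Egr1, Myc and Spry1 at the top left show both EpiLC points right of both ESC points, and Socs3 and Bcl3 at the top right show the reverse.

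Of 16 general pluripotency genes 8 lay above and 1 below, with a median log2 fold change of 0.48. Of all tested genes 20.0% lay above and 21.3% below. All 16 were lower in haploid than in diploid ESC, 8 of them at least 2-fold (11.7% of all tested genes). Without haploid ESC 8 lay above and 4 below (34.2% and 35.4% of all tested genes) and the median was 0.06. It was 1.14 without diploid ESC, 0.83 without p53-KO EpiLC and 0.25 without wild-type EpiLC. Pou5f1, the core factor Oct4, overlapped at 692 and 1160 CPM in EpiLC and 372 and 903 CPM in ESC. Lin28b, which blocks let-7 maturation, rose from 13.8 and 14.7 CPM in haploid and diploid ESC to 50.2 and 108 CPM in p53-KO and wild-type EpiLC (log2 fold change 2.48 ± 0.41, edgeR adjusted p = 0.0371). Lin28a, its paralog, lay above at 389 and 555 CPM against 117 and 185 CPM without passing (adjusted p = 0.158). Utf1, a chromatin-bound factor of pluripotent cells, lay above at 351 and 609 CPM against 135 and 165 CPM (adjusted p = 0.0679). Sox2 was the member below, at 192 and 92.7 CPM against 334 and 462 CPM. The Lin28b call was lost without either ESC library, wild-type EpiLC or any one EpiSC library.

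Of the Nodal, BMP and Wnt genes 2 passed, both in the Wnt list. None of 17 Nodal pathway members passed in edgeR; 5 lay above, 4 were higher at an unadjusted p under 0.05, and 4 passed in DESeq2. Without TMM factors 4 lay above and 4 below, in place of 5 and 2. With them 20.0% of all tested genes lay above and 21.3% below, and 34.2% and 35.4% without haploid ESC. Without haploid ESC 8 lay above and 4 below, and Skil, which encodes a repressor of SMAD proteins, passed in edgeR. Lefty1, the Nodal antagonist, stood at 338 and 153 CPM in EpiLC against 38.6 and 8.1 CPM in ESC (edgeR adjusted p = 0.156). Its EpiLC and ESC values were apart, whereas Nodal itself overlapped, at 89.2 and 51.2 CPM against 34.4 and 74.8 CPM. Foxh1, which carries the SMAD signal to DNA, stood at 111 CPM in both EpiLC libraries and 40 and 45.2 CPM in ESC (adjusted p = 0.126).

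None of 16 BMP pathway and Id genes passed in edgeR, with 5 lower at an unadjusted p under 0.05 and 1 in DESeq2. In this list 3 lay above and 5 below, near the 20.0% and 21.3% of all tested genes. Without haploid ESC 8 lay above and 5 below (34.2% and 35.4% of all tested genes). Without diploid ESC 3 lay above and 12 below (34.8% and 39.3%). Id3, an inhibitor of bHLH factors induced by BMP, stood at 5.03 and 4.13 CPM in EpiLC against 51.4 and 25.8 CPM in haploid and diploid ESC. The groups lay apart by a gap of 2.33, with a log2 fold change of -3.07 ± 0.58 (edgeR adjusted p = 0.0622). Bmp4, the ligand, was separated by 0.05, with the 2 outer libraries wild-type EpiLC at 1.97 CPM and haploid ESC at 30.9 CPM.

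In the Wnt list 6 of 25 members lay above and 6 below, close to the background of all genes, and Lef1 and Lgr4 rose. Without haploid ESC the counts were 8 and 10. Lgr4, the R-spondin receptor, stood at 254 and 261 CPM in EpiLC and 76.6 and 74.8 CPM in ESC, with the libraries of each type within a few CPM of each other (log2 fold change 1.77 ± 0.29, edgeR adjusted p = 0.0371). Fzd7, a Wnt receptor, stood at 232 and 177 CPM against 68.1 and 59.5 CPM (adjusted p = 0.0833). Sp5 and Axin2, 2 of the members below, and Cdx1 of the primitive streak list did not pass. Sp5, a zinc finger factor gene, stood at 6.24 and 4.5 CPM in haploid and diploid ESC, with 2 counts in the 2 EpiLC libraries together, a ratio of 85.4 (95% exact binomial interval 23.3 to 710, edgeR adjusted p = 0.345). Axin2, the feedback scaffold, stood at 20.5 and 11.7 CPM in EpiLC against 25.3 and 33.5 CPM (edgeR adjusted p = 0.734). Cdx1, a caudal homeobox gene, stood at 0.692 and 0.0656 CPM against 17 and 18.3 CPM, and its log2 fold change of -5.51 ± 1.53 did not pass (adjusted p = 0.162). Lef1 did not pass without either ESC library, wild-type EpiLC, haEpi1 or the diploid p53-KO EpiSC library, and Lgr4 did not pass without any one ESC, EpiLC or EpiSC library.

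The chromatin lists gave no call. As background for their counts, 20.0% of all tested genes lay above and 21.3% below. None of 15 DNA methylation genes passed in edgeR; 4 were higher and 2 lower at an unadjusted p under 0.05, and DESeq2 called 1 and 2. In this list 4 lay above and 2 below, against 6 and 6 without haploid ESC, and without p53-KO EpiLC Dnmt3b and Tet2 passed in edgeR, the former higher and the latter lower. Dnmt3a stood at 175 and 1010 CPM in p53-KO and wild-type EpiLC and at 134 and 118 CPM in ESC, so its separation from ESC in p53-KO EpiLC was slight, a gap of 0.39. Dnmt3l, their catalytically inactive partner, overlapped, with its highest value in p53-KO EpiLC: 526 and 117 CPM against 141 and 244 CPM. Tet2, a 5-methylcytosine oxidase, stood at 69.5 and 9.12 CPM against 150 and 261 CPM. For Dnmt3a and Tet2 wild-type EpiLC was the library farthest from ESC. Of 11 Polycomb repressive complex 2 genes 4 lay below and 0 above, none by a gap of 1, and none passed in edgeR (4 at an unadjusted p under 0.05, 0 in DESeq2). Without haploid ESC 5 lay below and 2 above. Among those below Suz12, a core subunit, stood at 268 and 217 CPM against 386 and 346 CPM.

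Adhesion and guidance genes gave calls in both directions. Esrp1, an epithelial splicing regulator, rose from 11.8 and 2.89 CPM in haploid and diploid ESC to 122 and 156 CPM in p53-KO and wild-type EpiLC (log2 fold change 4.23 ± 0.59, edgeR adjusted p = 0.029). Of 22 epithelial and mesenchymal genes 10 lay above, among them the epithelial Epcam, Ocln and Cdh1, and also Cdh2, the N-cadherin gene of mesenchymal cells, by a gap of 0.17. The 3 below were mesenchymal genes, Vim, Zeb1 and Fn1, with Vim at 104 and 80 CPM against 371 and 330 CPM (adjusted p = 0.194). The fibroblast markers given above summed to 2150 CPM in haploid and 61.6 CPM in diploid ESC. Their part in the levels of these mesenchymal genes was not tested. Without TMM factors the count above was 6 of 22. With them 20.0% of all tested genes lay above and 21.3% below. These shares were 34.2% and 35.4% without haploid ESC, and 34.8% and 39.3% without diploid ESC. Without haploid ESC 15 lay above and 3 below, and Epcam, Esrp1 and Cldn7 passed, and without diploid ESC 10 lay above and 9 below.

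Efnb2, a membrane-bound ephrin ligand, rose from 13.6 and 8.42 CPM in ESC to 68.3 and 70.6 CPM in EpiLC (log2 fold change 2.65 ± 0.35, edgeR adjusted p = 0.0281). Epha4, a receptor that binds it, fell from 59.5 and 128 CPM to 6.41 and 6.04 CPM (-3.91 ± 0.58, adjusted p = 0.0317). The EpiLC values of each gene were nearly equal, and EpiSC had 81.1 to 152 CPM of Efnb2 and 10.3 to 35.7 CPM of Epha4. Of 15 Eph and ephrin genes 3 lay above and 5 below, where 20.0% and 21.3% of all tested genes did so. Without haploid ESC the counts of the list were 5 and 6. Both calls were kept without haploid ESC and lost without diploid ESC, wild-type EpiLC, haEpi1 or the diploid EpiSC library Epi_fema, as was the call of Esrp1. Epha4 was also lost without p53-KO EpiLC, and Epha4 and Esrp1 without the diploid p53-KO EpiSC library.

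Metabolic and cell cycle lists gave 1 call. None of 22 glycolysis genes passed in edgeR, with 5 lower at an unadjusted p under 0.05 and 2 in DESeq2. The 7 members below included Hk2, a hexokinase gene, at 96.5 and 201 CPM in EpiLC against 460 and 483 CPM in ESC, and Pfkp, a phosphofructokinase gene, at 164 and 150 CPM against 440 and 566 CPM. The glucose transporter gene Slc2a3 stood at 876 and 177 CPM against 1900 and 1740 CPM. All 3 lay apart, though 3 members lay above and the list's median log2 fold change was 0.22. Of all tested genes 20.0% lay above and 21.3% below. Without haploid ESC 4 lay above and 7 below, and without p53-KO EpiLC 14 lay above and 7 below and Hk1 passed, with a negative sign. The median was 0.14 without haploid ESC, 0.46 without diploid ESC, 0.35 without p53-KO EpiLC and -0.27 without wild-type EpiLC. Respiratory chain genes lay above in 11 of 31 and below in 3, with no gap of 1 above, a median of 0.18 and no call in edgeR (1 at an unadjusted p under 0.05, 0 in DESeq2). Without TMM factors these counts were 7 and 6, and without haploid ESC 13 and 10, with a median of 0.08. The median was 0.31 without p53-KO and 0.06 without wild-type EpiLC. Of 19 G1 cell cycle genes 4 lay above and 1 below, with a median of 0.09. Without haploid ESC 9 of them lay above and 6 below, with a median of 0.3. Ccnd3, a D-type cyclin, fell from 298 and 323 CPM to 111 and 78.8 CPM (log2 fold change -1.71 ± 0.28, edgeR adjusted p = 0.0371), a call lost without haploid ESC, diploid ESC, wild-type EpiLC or any EpiSC library but haEpi5.

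Of 26 imprinted genes 9 lay above and 5 below, where 20.0% and 21.3% of all tested genes did so. The median log2 fold change was 0.55. Without haploid ESC 13 lay above and 5 below (34.2% and 35.4% of all tested genes), with a median of 1.04. Without diploid ESC 11 lay above and 8 below (34.8% and 39.3%), with a median of 0.14, while without wild-type EpiLC the median was 0.32. None passed in edgeR, 5 were higher and 4 lower at an unadjusted p under 0.05, and DESeq2 called 3 and 1. The paternally expressed Mest stood at 260 and 343 CPM in EpiLC against 54.3 and 73.8 CPM in ESC. Snrpn, a small ribonucleoprotein gene, stood at 199 and 249 CPM against 33.2 and 52.5 CPM. Both lay apart by gaps of 1.82 and 1.92 (edgeR adjusted p = 0.203 and 0.136). Plagl1, a zinc finger gene, lay the other way, at 9.12 and 7.81 CPM against 22.2 and 137 CPM. EpiSC spread widely here, with Mest at 47.5 to 353 CPM.

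Of 23 heparan sulfate genes 4 lay above and 7 below, where 20.0% and 21.3% of all tested genes did so. None passed in edgeR, with 2 higher and 4 lower at an unadjusted p under 0.05 and 0 and 3 in DESeq2. Without haploid ESC 7 lay above and 9 below, and Hs6st2, a 6-O-sulfotransferase gene, passed as higher. Hs3st3b1, the 3-O-sulfotransferase in the title of the study, lay below, at 2.26 and 0.788 CPM in EpiLC against 7.23 and 4.95 CPM in ESC. Gpc4 and Sdc4, core proteins that carry these chains, lay below by gaps of 1.33 and 1.21. Sdc4 stood at 17.5 and 31.2 CPM against 73.1 and 72.4 CPM, with an edgeR adjusted p of 0.102.

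The lists of other fates gave no call in the fit of all libraries. Only 0.317% of all tested genes rose and 0.109% fell, so lists of this size could hold few calls. In edgeR none passed in the primitive streak (16 tested), extraembryonic endoderm (17), trophoblast (15), neural (18), germline (22), 2-cell-like (17) and fibroblast (23) lists. The numbers higher and lower at an unadjusted p under 0.05 were 2 and 3, 0 and 6, 0 and 2, 0 and 2, 0 and 5, 0 and 7, and 1 and 4 in that order, and DESeq2 called 0 higher in each list and 1, 2, 0, 1, 1, 1 and 2 lower. Without haploid ESC none passed in these lists either, but the members above numbered 5, 3, 7, 6, 10, 4 and 17 in place of 1, 0, 0, 2, 1, 0 and 0, and those below 8, 4, 3, 5, 6, 8 and 3 in place of 7, 3, 3, 5, 6, 8 and 3. The median of the fibroblast list was then 4.16 in place of -2.34, that of the germline list 0.52 in place of -0.84, of the trophoblast list 0.44 in place of -0.83 and of the neural list 0.95 in place of -0.47. Without p53-KO EpiLC Pdgfrb of the fibroblast list passed as lower. Of all tested genes 20.0% lay above and 21.3% below, and without haploid ESC 34.2% and 35.4%. The trophoblast list summed to 1450 CPM in p53-KO and 223 CPM in wild-type EpiLC, and to 977 CPM in haploid and 253 CPM in diploid ESC. T, the brachyury gene of the streak, stood at 0.629 and 0.459 CPM in EpiLC and 1.62 and 0.836 CPM in ESC. Dazl, a germ cell RNA-binding protein gene, stood at 8.99 and 11.9 CPM against 275 and 37.2 CPM, and in EpiSC at 0 to 0.149 CPM. The Zscan4 genes of the 2-cell-like list are near-identical copies, and their counts cannot be told apart with certainty. Zscan4a stood at 1.76 and 0.919 CPM against 24.1 and 4.63 CPM.

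**Figure D3:**
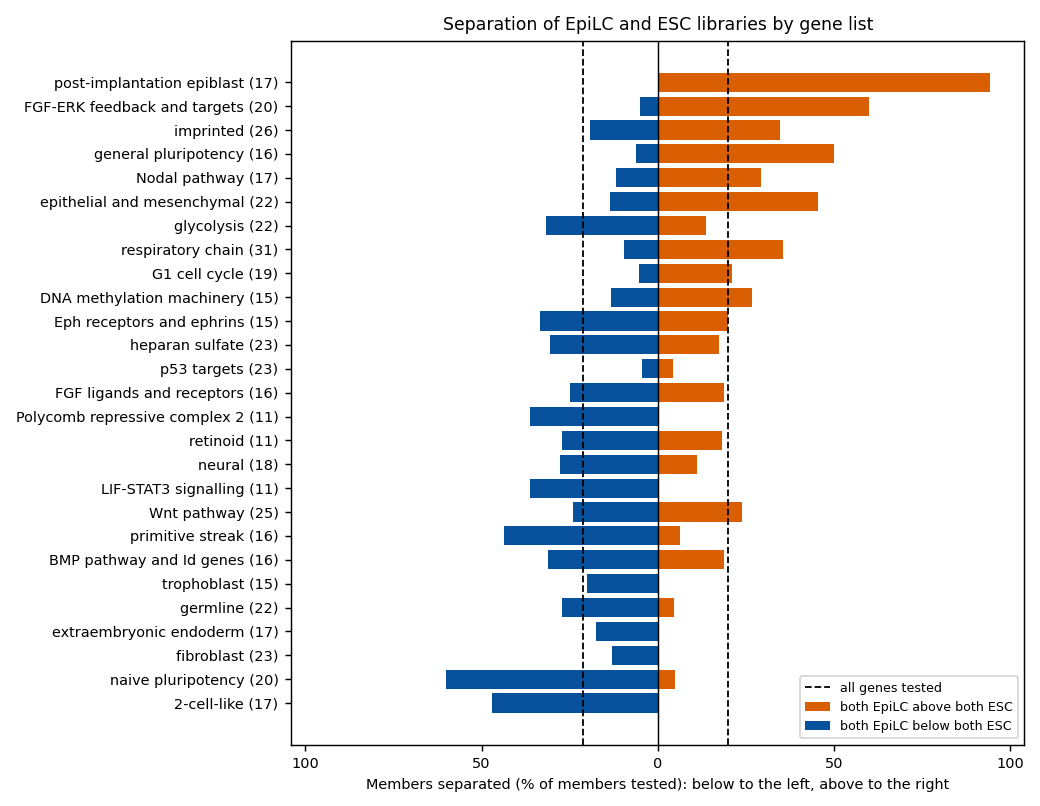
Share of tested members with both EpiLC libraries above (right, orange) or below (left, blue) both ESC libraries, for 27 gene lists ordered by median log2 fold change, with the number tested in brackets. Dashed lines mark all tested genes (20.0% above, 21.3% below); the post-implantation list reaches 16 of 17 above and the naive list 12 of 20 below.

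Most of the largest changes were in genes outside these lists. Slc7a7 (ENSMUSG00000000958, mm10 chr14:54369442-54417780, minus strand), the light chain of a cationic amino acid transporter, had the smallest adjusted p of all genes. It stood at 240 CPM in p53-KO and 312 CPM in wild-type EpiLC, and at 13.8 CPM in haploid and 14.2 CPM in diploid ESC. The libraries of each type were close and the types far apart, with a log2 fold change of 4.30 ± 0.28 (edgeR adjusted p = 0.000532). Slc7a7 was the only call of the 90 kept without diploid ESC. Myrf, a membrane-bound transcription factor known from myelination, stood at 191 and 210 CPM against 14.3 and 8.29 CPM (4.15 ± 0.35, adjusted p = 0.00327). Mmp25, a membrane-anchored metalloproteinase gene, stood at 49.3 and 157 CPM against 2.46 and 1.8 CPM (5.59 ± 0.62, adjusted p = 0.015). Without wild-type EpiLC the calls kept were these 3 with Dusp6 and Fgf5.

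Of the 67 genes that rose 9 had a transcription factor family in the table (13.4%), against 6.22% of tested genes, 6.76% of genes above by a gap of at least 1 and 6.56% of genes below by such a gap. They included Pou3f1, Lef1, Otx2, Myrf, Lin28b, Bcl11a, Foxp1 and Insm1. Of the genes that rose 97.0% were protein-coding, against 76.9% of tested genes, and the share among protein-coding genes alone was not computed. Bcl11a, a zinc finger repressor, stood at 6.41 and 24.4 CPM in EpiLC and rested on 5 counts in the 2 ESC libraries together, a ratio of 109 (95% exact binomial interval 46.5 to 338). Foxp1, a forkhead factor, stood at 56.5 and 169 CPM against 8.45 and 11.8 CPM (log2 fold change 3.48 ± 0.56, edgeR adjusted p = 0.0353). In both wild-type EpiLC was the higher of the EpiLC libraries. Among the 23 that fell 1 had such a family, Crxos, a homeobox gene of early embryos, which went from 32.4 and 44.8 CPM in ESC to 1.01 and 1.12 CPM and had a count of 0 in every EpiSC library (-5.18 ± 0.57, edgeR adjusted p = 0.0353).

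The other large increases were Olfr307, Car4, Fndc3c1, Ccdc194, Vrtn and Clca4a. Olfr307, of the olfactory receptor family, stood at 6.29 and 5.51 CPM and had a count of 0 in both ESC libraries, so that on the log2 scale it was at least 5.12 higher against a floor of 3 counts per library. Car4, a membrane carbonic anhydrase gene, stood at 58.7 and 116 CPM against 0.59 and 0.193 CPM (log2 fold change 7.72 ± 1.22, edgeR adjusted p = 0.035). Vrtn, a gene that acts in vertebral number, stood at 16.2 and 101 CPM against 1.18 and 0.836 CPM (5.84 ± 0.89, adjusted p = 0.0345). Vrtn differed more within EpiLC than Slc7a7 or Myrf did, and its EpiSC values of 47 to 117 CPM bracketed the wild-type value. Car4 and Vrtn, unlike Mmp25, did not pass without haploid ESC.

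Among the decreases Prss35, a secreted protease-like gene, had the smallest adjusted p. It stood at 0.503 CPM in p53-KO and 0.328 CPM in wild-type EpiLC, and at 14.7 CPM in haploid and 16.9 CPM in diploid ESC (log2 fold change -5.22 ± 0.51, edgeR adjusted p = 0.00537). Arhgef10l, a guanine nucleotide exchange factor gene, fell from 54.1 and 90.9 CPM to 8.8 and 8.2 CPM (-3.09 ± 0.37, adjusted p = 0.0222). Atp2b4, a plasma membrane calcium pump gene, fell from 44.5 and 40.4 CPM to 7.1 and 2.49 CPM (-3.14 ± 0.44, adjusted p = 0.029). Each was well separated, and in EpiSC Atp2b4 lay at 26.1 to 38.6 CPM, above both EpiLC libraries. H2afy, the gene of the histone variant macroH2A1, fell from 124 and 123 CPM to 30 and 16.4 CPM (-2.41 ± 0.30, adjusted p = 0.0249). Jak3, a cytokine receptor kinase gene, fell from 49.6 and 114 CPM to 11.8 and 15.4 CPM (-2.58 ± 0.41, adjusted p = 0.0345). Their EpiSC levels, 78.9 to 105 CPM and 16.8 to 23.8 CPM, were also above both EpiLC values.

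**Figure D4:**
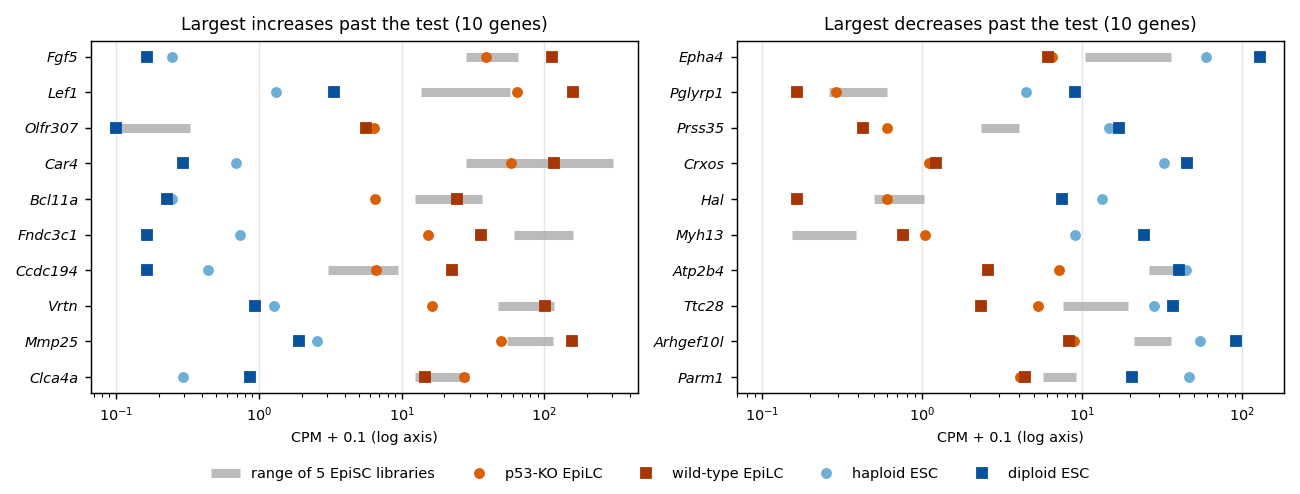
Levels of the 10 genes with the largest increase and the 10 with the largest decrease among protein-coding genes that passed (points, CPM + 0.1 on a log axis, grey bars the range of 5 EpiSC libraries). EpiLC and ESC points lie apart in every row; Epha4, Atp2b4 and Arhgef10l show an EpiSC range between EpiLC and ESC or beside ESC.

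Of the 90 genes that passed 87 were protein-coding (96.7%), against 76.9% of tested genes. The level, on which a count test itself depends, had a median on the higher side of 47 CPM for genes that rose and 33.4 CPM for those that fell, against 9.31 CPM over tested genes. The wider set with a gap of at least 1 looked different on its 2 sides. Of the 621 genes above 84.4% were protein-coding, with a median EpiSC level of 5.75 CPM and a median on the higher side of 5.9 CPM, under that of tested genes. Of the 900 below 59.1% were protein-coding, with a median EpiSC level of 0.487 CPM and a median on the higher side of 2.42 CPM. X-linked genes made up 6.6% of the genes above and 1.89% of those below, against 4.06% of tested genes.

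The 2 EpiLC libraries also differed from each other in these lists. Post-implantation genes were at least 2-fold higher in wild-type than in p53-KO EpiLC in 11 of 17 members and lower by that much in 0, with a median difference of 1.17, against 2120 higher and 3865 lower of all 21104 tested genes. Naive genes, as given above, were lower in 17 of 20. Among the genes that passed, 18 of 67 that rose were at least 2-fold higher in wild-type EpiLC and 1 was lower. FGF-ERK genes differed less, with 4 of 20 higher and 1 lower. The p53 targets were at least 2-fold higher in wild-type EpiLC in 16 of 23 and lower in 0. In 15 of 23 they were at least 2-fold lower in haploid than in diploid ESC (11.7% of all tested genes). Of the 23 targets Pmaip1 passed, which encodes the BH3-only protein Noxa: it rose from 26.7 and 17.8 CPM to 68.7 and 123 CPM (log2 fold change 2.10 ± 0.34, edgeR adjusted p = 0.0356), a call lost without either ESC library, wild-type EpiLC or any one EpiSC library. Trp53 level, Y-linked level and EpiLC label all divide the 2 EpiLC libraries, and their parts cannot be told apart.

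**Figure D5:**
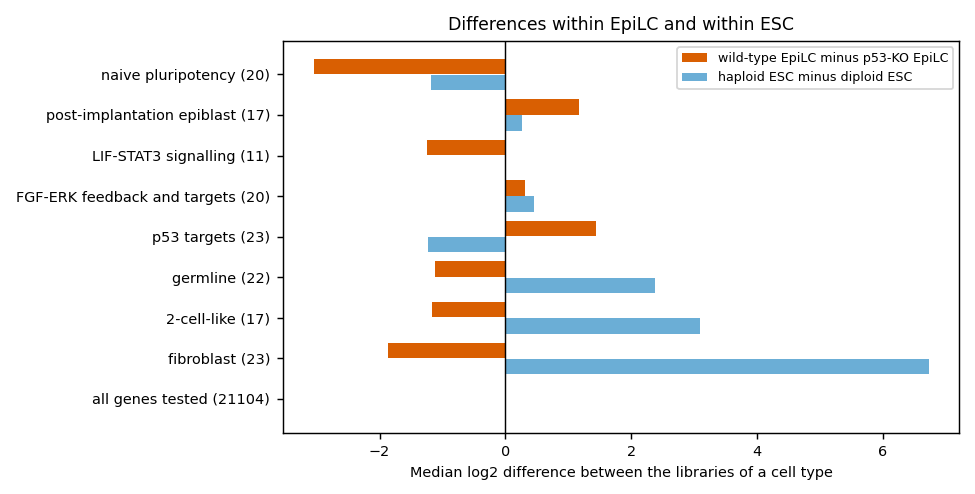
Median log2 difference between the 2 libraries of a cell type over the tested members of 8 lists and over all tested genes (bars from 0, members in brackets). Naive genes are lower and post-implantation genes higher in wild-type than in p53-KO EpiLC, at -3.05 and 1.17; the 2 differences have opposite signs for the p53 targets, germline, 2-cell-like and fibroblast lists.

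At the edge of the rule, the list member with the smallest gap inside it was Zfp281, a zinc finger factor of pluripotent cells, at 160 and 178 CPM in EpiLC against 135 and 159 CPM in ESC. The nearest outside it was Mbd3, a subunit of the NuRD complex, at 140 and 216 CPM against 124 and 143 CPM.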

How the data were processed

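RNA was selected by its poly-A tail and sequenced, per the labels' protocols, without spike-ins named. The authors deposited whole-number counts per gene, made with HISAT2 2.0.5 and featureCounts 1.5.0-p3 on mm10 per the submitters' processing notes, and FPKM of the same genes. How the counting treated strand is not given in the sources used, and reads of antisense or overlapping genes cannot be told apart. Libraries were grouped by the labelled cell type. The test was edgeR 4.0.16 (R 4.3.3): filterByExpr, TMM, all 10 libraries, 1 mean per cell type, quasi-likelihood F test, Benjamini-Hochberg adjustment at 0.05. The standard error of a log2 fold change is its size over the square root of F. Gaps use log2 CPM with a prior count of 2. Alternatives were DESeq2 1.42.0, limma 3.58.1 on log2(FPKM + 1) and log2(FPKM + 0.1) with a minimum of 1 FPKM in any library or no filter, other library sets and scalings, covariates for p53 label and ploidy, and leaving out each library. The edgeR script was tested on simulated data. In a chi-square test over genes every pair of libraries differed beyond sampling noise.

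The members and the 27 gene lists (512 entries) were chosen with earlier results of these data known. Named genes followed a rule: Fgf5, Pou3f1, Lef1 and Klf4, label checks (Trp53, Ddx3y), up to 4 members per list and direction with the largest gap and at least 5 CPM on the higher side, those past the test first, and the 10 largest changes per direction among protein-coding genes past the test. Other genes with values (such as Otx2, Nanog, Esrrb, Tfcp2l1, Klf2, Klf5, Egr1, Etv5, Slc7a7, Myrf, Foxp1, H2afy and Jak3) were chosen after their values were seen. Some genes are not reported here.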

Additional observations from a re-analysis of the deposited data

How the results depend on the processing

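No paired analysis was possible because the labels give no replicate numbers that the cell types share. The counts of genes higher and lower in EpiLC, 67 and 23, were 64 and 23 with DESeq2 size factors in edgeR and 73 and 30 without MEF. They were 544 and 408 with DESeq2, 397 and 279 without the low-count filter, 23 and 5 with p53 label and ploidy as covariates, and 0 and 0 in the 4 libraries alone (1651 at an unadjusted p under 0.05). With limma they were 105 and 205 on log2(FPKM + 1), 110 and 136 on log2(FPKM + 0.1), and 156 and 502 with no filter. Leaving out 1 library gave 1 to 143 higher and 0 to 73 lower; the fewest came without diploid ESC and the most without p53-KO EpiLC, and the cause was not tested. Of the 90 genes, 25 passed with the covariates and 63 to 84 with limma. Their direction was the same in all 18 alternatives wherever they were fitted. The filtered limma fits held 89 of the 90, and 1 gene was left out by the filter. Genes with both EpiLC libraries above numbered 4029 in FPKM and below 4719. Leaving out 1 of the 4 libraries gave 6729 to 7336 above and 6680 to 8291 below, since fewer values must then be apart. A gap of at least 1 left 621 above and 900 below. Depth limits genes at 0, whose level is known only to about 0.2 CPM, and 2 libraries per type limit the rest.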
